A study of Mus musculus with 6 samples.

Results

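The 9 genes Mrc1, Pf4, Ms4a7, Cbr2, Lyve1, Lyz2, Ccr2, S100a8 and S100a9 mark macrophages of the brain borders, monocytes and neutrophils, and their transcripts were followed in tdT+ cells sorted from the mouse cerebral cortex. They were chosen by name and are 9 of the 23494 genes listed in either of the study's UMI tables, with 22833 listed for the NG2 line and 21008 for the Tbx18 line. Their counts were summed by library in cluster 9 of the NG2 line, named microglia by the study, in cluster 3 of the Tbx18 line, also named microglia, and in cluster 4 of the Tbx18 line, named vascular-genic pericytes, and were set against the other clusters of the same line.

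The study asked which cell types pericytes marked by either of a pair of Cre drivers give rise to after injury. The mice were NG2-Cre-ERT2/Ai14-flx or Tbx18-CreERT2/Ai14-flx, 3 to 4 months old, and tamoxifen switched on a tdTomato reporter in cells in which the Cspg4 (NG2) or the Tbx18 promoter was active, so that any cell type that used the promoter could be labelled. For each line there was 1 library from naive mice without injury, 1 after physical injury, in which saline was injected into the cortex, and 1 after ischemic injury, in which ET-1/L-NAME (a vasoconstrictor peptide with an inhibitor of nitric oxide synthesis) was injected. The injured cortex was collected 3 days after the injection, tamoxifen had been given 7 days before the injury, and tdT+/DAPI- live cells pooled over several animals of both sexes were sorted for 10x Genomics 3′ sequencing. Each group is therefore 1 library, no test between conditions was possible, and intervals cover counting error only: how animals differ was not measured.

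Border macrophages live in the meninges and the perivascular spaces, where they take up material from the blood and the cerebrospinal fluid, while microglia live in the brain tissue itself. Monocytes enter injured tissue from the blood through Ccr2 signalling and can mature there into macrophages, and neutrophils enter early and carry much S100a8 and S100a9 protein in the cytosol. None of these cells is a pericyte, a contractile cell of the capillary wall, and the transcripts of the 9 genes are commonly used to tell blood-derived and border cells from microglia.

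The tables held 10455 NG2 and 6578 Tbx18 cells, with 686 to 4306 cells and 3153996 to 54276245 UMIs (unique molecular identifiers, each counting 1 captured transcript) in a library. Median UMIs per cell were 2806 to 9232, lowest in the naive library of both lines. Any pair of libraries shared 0 to 5 cell barcodes. NG2 cluster 9 held 18, 36 and 164 cells in naive, physical injury and ischemic injury, Tbx18 cluster 3 held 76, 318 and 265, and Tbx18 cluster 4 held 157, 349 and 143. Levels are given as counts per 1000000 UMIs of the cells summed (CPM), with exact 95% Poisson intervals in brackets.

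The cluster names were first checked against marker lists. All 12 homeostatic microglia genes were detected in every library of NG2 cluster 9, at a summed level of 11490 CPM in naive, 9669 CPM in physical injury and 8914 CPM in ischemic injury cells, with P2ry12, a purinergic receptor of resting microglia, at 1238, 633 and 406 CPM. Tbx18 cluster 3 was different. Its homeostatic microglia list summed to 1079 CPM in physical and 993 CPM in ischemic injury, with P2ry12 at 39.4 and 43.3 CPM, whereas the dendritic and antigen presentation list, led by Cd74, the invariant chain of MHC class II, summed to 33064 and 28873 CPM. The pan-myeloid list (12 genes such as C1qa, Csf1r and Tyrobp) summed to 13194 and 12005 CPM in those injured cells. In physical injury 304 of 318 cells and in ischemic injury 247 of 265 held 3 or more of its genes. Most were thus myeloid cells, with few microglia transcripts. The 76 naive cells of Tbx18 cluster 3 were not myeloid: their pan-myeloid list stood at 17.7 CPM, P2ry12 rested on 1 UMI, and their pericyte list, led by Vtn and Rgs5, summed to 19957 CPM. These clusters are called by their number below, and the naive cells of Tbx18 clusters 3 and 4 were not read as a baseline of myeloid cells.

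Where promoters bear on the members, sequence is shown for the S100a8 and S100a9 pair, whose transcripts were found in the same cells, and for Pf4, a gene of platelets that macrophages also use. The 250 bases before each RefSeq start (GRCm38.p6) were read for 8 of the 9 members and searched on both strands for GAGGAAGT, a PU.1-type motif, and TTGCNNAA, a C/EBP-type motif. Matches, which did not overlap one another, are in capitals in the sequences, which run 5′ to 3′ on the strand of the gene.

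S100a8, chr3:90668821-90669070, plus strand: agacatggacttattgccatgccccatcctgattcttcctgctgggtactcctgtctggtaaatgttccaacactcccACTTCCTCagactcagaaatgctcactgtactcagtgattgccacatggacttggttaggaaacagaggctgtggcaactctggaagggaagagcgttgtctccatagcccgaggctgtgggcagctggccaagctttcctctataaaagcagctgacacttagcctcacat

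S100a9, chr3:90695722-90695971, minus strand: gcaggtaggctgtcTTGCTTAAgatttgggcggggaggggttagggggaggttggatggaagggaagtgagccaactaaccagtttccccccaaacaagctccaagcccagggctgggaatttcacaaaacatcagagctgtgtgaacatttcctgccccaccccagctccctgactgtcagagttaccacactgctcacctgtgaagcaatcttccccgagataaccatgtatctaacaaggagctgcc

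Pf4, chr5:90772185-90772434, plus strand: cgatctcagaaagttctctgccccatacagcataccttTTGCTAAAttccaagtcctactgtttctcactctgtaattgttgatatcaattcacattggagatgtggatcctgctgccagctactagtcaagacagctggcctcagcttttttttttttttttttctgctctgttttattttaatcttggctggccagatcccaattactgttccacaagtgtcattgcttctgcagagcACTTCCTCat

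S100a8 held the PU.1-type letters 172 bases before its start, S100a9 the C/EBP-type letters 236 bases before, and Pf4 both, at 10 and 212 bases. In each case 2 of the 8 members held a motif, while 2.44% of 32841 mouse promoters of the same length held the PU.1-type and 9.57% the C/EBP-type letters. The sequences shown are those of every member read that held a match. Mrc1, Ms4a7, Cbr2, Lyz2 and Ccr2 held neither motif. These are matches of letters in a window, and binding was not measured. The genes lie at (mm10, GENCODE M21) chr2:14229392-14332057 for Mrc1, chr19:11321039-11336146 for Ms4a7, chr11:120729489-120732114 for Cbr2, chr7:110850607-110863239 for Lyve1, chr10:117277331-117282321 for Lyz2 and chr9:124101950-124113557 for Ccr2. S100a8 (chr3:90668978-90670035) and S100a9 (chr3:90692632-90695721) are neighbours, as are Lyz2 and its paralog Lyz1 (chr10:117287797-117292868), which share sequence. Reads of the Lyz2 and Lyz1 pair could be split, and the files held 5 NG2 and 199 Tbx18 UMIs of Lyz1 against 3017 and 52442 of Lyz2.

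To see where the transcripts lay, the UMIs of each member were summed over all cells of a line. The 9 genes together had 4963 UMIs in the NG2 line, 79.7% of them in cluster 9, which held 2.09% of the cells and 4.39% of all UMIs. The Tbx18 line had 71900 UMIs of the 9 genes, of which cluster 3 held 94.3% and cluster 4 held 4.61%. By library, NG2 cluster 9 held 21.1% of the members' UMIs in naive, 29.5% in physical injury and 94.7% in ischemic injury, and Tbx18 clusters 3 and 4 together held 11.4%, 98.6% and 99.4%. The summed members were thus nearly confined to these clusters in the ischemic injury libraries of both lines and the physical injury library of Tbx18. In both naive libraries most of the summed UMIs lay outside them, and Mrc1 made up 206 of the 318 NG2 and 41 of the 44 Tbx18 UMIs. All 53 Lyz2 and 7 of the 8 Ccr2 UMIs of naive NG2 lay inside cluster 9. In physical injury of NG2, 355 of the 780 UMIs lay in 4 cells of cluster 7 rich in S100a8 and S100a9, and without those cells, a choice made after seeing the data, cluster 9 held 54.1%.

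Single genes departed from that picture. In NG2, cluster 9 held 98.6% of Ms4a7, 98.3% of Lyz2, 93.3% of Ccr2 and 84.1% of Pf4 UMIs, but 41.3% of Mrc1, 19.7% of Cbr2, 4.55% of S100a8, 1.79% of Lyve1 and 0% of S100a9 UMIs. In Tbx18, cluster 3 held 86.1 to 99.3% of each member except Cbr2, at 45.4%, and Lyve1, at 23.8%. Cluster 4 held 24.8% of Cbr2, 19.8% of Lyve1 and 11.4% of Pf4 UMIs.

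**Figure D1:**
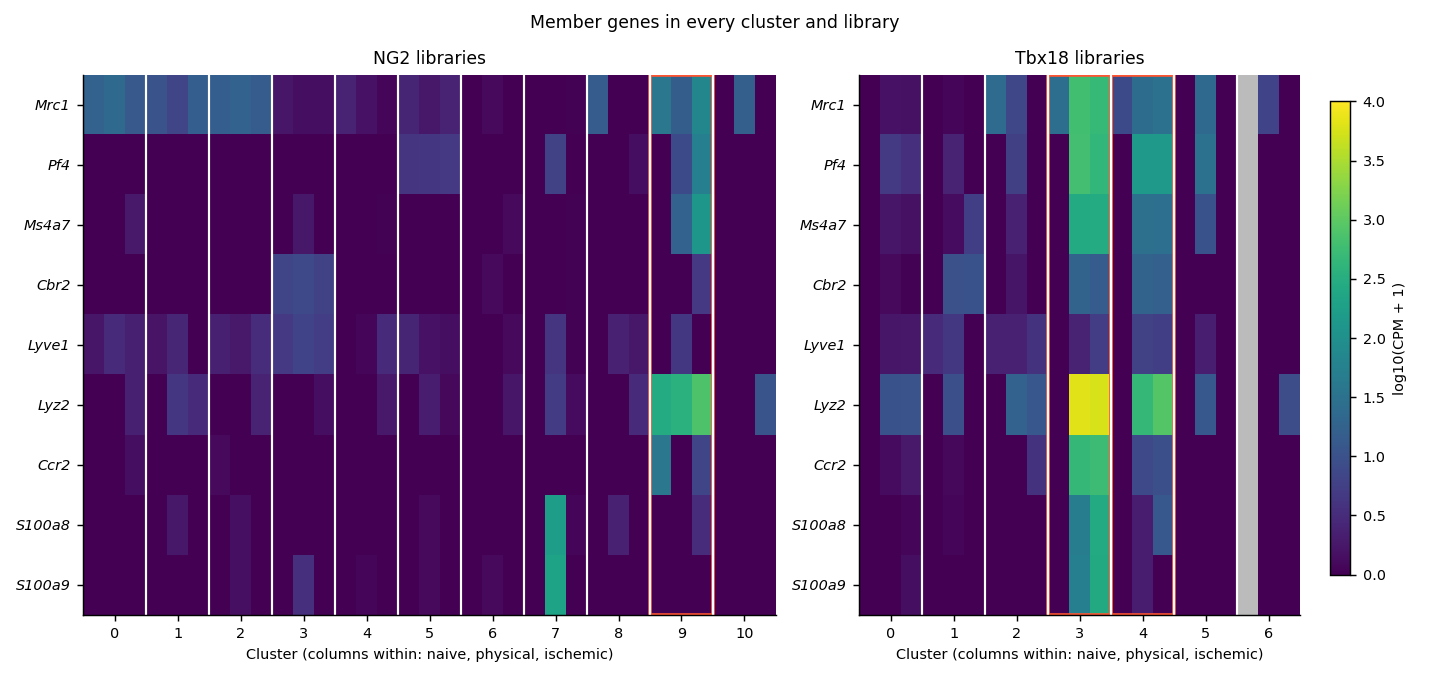
Summed level of each member (CPM, colour on a log scale) in every cluster and library of the NG2 and Tbx18 lines, with grey where a library had no cell. NG2 cluster 9 and Tbx18 clusters 3 and 4 stand out in the injury libraries, Mrc1 is also seen in NG2 pericyte clusters, and S100a8 and S100a9 in NG2 cluster 7.

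Set against all other clusters of its line, with a member counted when its CPM (with 1 CPM added) was 4-fold or more higher, NG2 cluster 9 had 5 of 9 members past the fold, where 5.23% of all genes tested were. Mrc1 was 15.3 times [13 to 18] as high, Pf4 115 times [80.4 to 168], and Ms4a7 and Lyz2 1506 and 1292 times. Ccr2 passed on 28 UMIs against 2. In Tbx18 cluster 3, 7 of 9 members passed, against 6.39% of genes: all but Cbr2, 4.59 times as high before the 1 CPM was added, and Lyve1, 1.72 times. In Tbx18 cluster 4 no member was 4-fold higher, where 3.58% of genes were, and Ccr2, S100a8 and S100a9 were 4-fold or more lower, where 6.59% of genes were. The clusters it was set against include cluster 3, with 98.9% of the line's Ccr2, 98.5% of its S100a8 and 99.3% of its S100a9 UMIs. The 649 cells of cluster 4 held 29 Ccr2, 18 S100a8 and 3 S100a9 UMIs, and the 5270 cells outside clusters 3 and 4 held 19, 3 and 6. Since the clusters had been formed on expression, these values describe them and are no test.

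Of the border macrophage genes, Mrc1 encodes CD206, a receptor for mannose-bearing glycoproteins. Mrc1 in NG2 cluster 9 stood at 38.2 CPM [15.4 to 78.7] in naive, 13.9 CPM [6.01 to 27.4] after physical injury and 68.1 CPM [59.8 to 77.2] after ischemic injury, on 7, 8 and 245 UMIs. It stood in Tbx18 cluster 3 at 26.6 CPM in naive cells, on 3 UMIs in 3 cells, at 613 CPM [589 to 638] in physical injury and at 484 CPM [463 to 505] in ischemic injury. Tbx18 cluster 4 had 6.87 CPM on 2 UMIs in naive cells, 25.3 CPM in physical and 31.5 CPM in ischemic injury. Summed over whole clusters, the level was highest in Tbx18 cluster 3, and the intervals of the injured cells there did not overlap those of the other clusters described. In Tbx18 cluster 4, however, 66 of 69 Mrc1 UMIs of physical and all 41 of ischemic injury lay in 44 and 19 cells with 3 or more pan-myeloid genes. Its other 305 and 124 cells held 3 and 0. A UMI of Mrc1 was found in 75.2% and 62.3% of Tbx18 cluster 3 cells after physical and ischemic injury, and in 39.0% and 25.9% when each cell was thinned to 1000 UMIs.

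Pf4, also called CXCL4, is a chemokine stored by platelets and made by border macrophages. NG2 cluster 9 had 0 UMIs in naive cells, where the 3-UMI floor was 16.4 CPM, 4 UMIs or 6.96 CPM [1.90 to 17.8] in physical injury, and 191 UMIs or 53.1 CPM [45.8 to 61.2] in ischemic injury. Tbx18 cluster 3 had 0 UMIs in naive cells, 647 CPM [622 to 672] in physical injury and 449 CPM [429 to 470] in ischemic injury. In the ischemic injury library 576 of the 1857 Pf4 UMIs, or 31.0%, came from 1 cell of 23344 UMIs, and without it the level was 312 CPM. That cell also held 81 UMIs of the platelet gene Ppbp, 839 of Lyz2 and all 12 pan-myeloid genes, and 0 of the platelet genes Gp9 and Itga2b. Tbx18 cluster 4 had 145 CPM in physical and 146 CPM in ischemic injury, in 7.74% and 8.39% of its cells. These levels are of the whole cluster only. In physical injury 392 of 395 Pf4 UMIs lay in 44 cells with 3 or more pan-myeloid genes, and in ischemic injury all 190 lay in 19 such cells.

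Ms4a7, a membrane-spanning gene of border and monocyte-derived macrophages that resting microglia barely use, was at 0 in naive cells of all 3 clusters. It stood at 17.4 CPM [8.34 to 32.0] and 132 CPM [120 to 144] in NG2 cluster 9 after physical and ischemic injury. The values were 274 and 286 CPM in Tbx18 cluster 3, in 47.8% and 47.5% of cells, and in Tbx18 cluster 4 they were 28.6 and 28.4 CPM. The level summed over NG2 cluster 9 in ischemic injury thus lay between those summed over both Tbx18 clusters. This ordering is of whole clusters. In Tbx18 cluster 4, 110 of the 115 Ms4a7 UMIs lay in 63 cells with 3 or more pan-myeloid genes, and its other 586 cells held 5.

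Cbr2, a carbonyl reductase, and Lyve1, a hyaluronan receptor of lymphatic vessels and of border macrophages beside vessels, were low when summed over each cluster described. Cbr2 had 13 UMIs in 7 cells of NG2 cluster 9, all of ischemic injury (3.61 CPM [1.92 to 6.18]). In the physical and ischemic injury cells it stood at 18.1 and 13.6 CPM in Tbx18 cluster 3 and at 17.9 and 16.1 CPM in Tbx18 cluster 4. Lyve1 had 2 UMIs in 1 cell of NG2 cluster 9, in physical injury. It stood at 1.51 and 4.36 CPM in Tbx18 cluster 3, the second on 18 UMIs in 6 cells, and at 5.13 and 4.61 CPM in Tbx18 cluster 4. Summed over whole clusters, Cbr2 did not tell the injured cells of the Tbx18 clusters apart at this depth. Within cluster 4, 39 of 49 Cbr2 UMIs of physical and 17 of 21 of ischemic injury lay in 44 and 19 cells with 3 or more pan-myeloid genes. Cluster 3 had 72 and 56 Cbr2 UMIs in 304 and 247 such cells, so that the like levels hold for the whole clusters only.

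Among the monocyte genes, Lyz2, the lysozyme of monocytes, macrophages and granulocytes, had the most UMIs of the members. It stood in NG2 cluster 9 at 289 CPM [217 to 378] in naive cells, 358 CPM [311 to 411] after physical injury and 753 CPM [725 to 782] after ischemic injury. It was at 0 in the naive cells of both Tbx18 clusters, at 6541 and 5724 CPM in Tbx18 cluster 3 after physical and ischemic injury, and at 466 and 836 CPM in Tbx18 cluster 4. The cluster 4 levels are of the whole cluster only. There 1245 of 1273 and 1078 of 1088 Lyz2 UMIs lay in 44 and 19 cells with 3 or more pan-myeloid genes. Of the cells, 77.8% and 81.7% of NG2 cluster 9 and 88.4% and 80.0% of Tbx18 cluster 3 held a Lyz2 UMI after physical and ischemic injury. Thinned to 1000 UMIs per cell the shares were 14.3% and 37.0% in NG2 cluster 9 and 81.1% and 69.2% in Tbx18 cluster 3, so that the similar plain shares came with unequal levels.

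Ccr2, the receptor that draws monocytes out of bone marrow and into tissue, set the injured cells of Tbx18 cluster 3 apart from the other clusters described. NG2 cluster 9 had 7 UMIs in naive cells, all in 1 cell, 0 in physical injury and 21 in ischemic injury, 14 of those in 1 cell. Tbx18 cluster 3 had 467 CPM in physical and 554 CPM in ischemic injury, in 80.5% and 82.3% of cells. Of its 14 and 18 cells with fewer than 3 pan-myeloid genes, 7 and 9 also held a Ccr2 UMI. Tbx18 cluster 4 had 18 and 11 UMIs, of which 13 and 8 lay in 1 cell of each library. The only deep source of Ccr2 transcripts was Tbx18 cluster 3, with 98.9% of the 4197 Tbx18 UMIs.

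S100a8 and S100a9 form calprotectin, the most abundant cytosolic protein of neutrophils. NG2 cluster 9 held 8 UMIs of S100a8, in 1 ischemic injury cell, and 0 of S100a9. Tbx18 cluster 3 held 191 S100a8 and 212 S100a9 UMIs in physical injury, 185 and all 212 of them in 1 cell. In ischemic injury it held 1143 S100a8 UMIs in 12 cells and 1096 S100a9 UMIs in 8 cells. Tbx18 cluster 4 held 3 UMIs of each gene in physical injury and 15 UMIs of S100a8, in 1 cell, and 0 of S100a9 in ischemic injury.

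**Figure D2:**
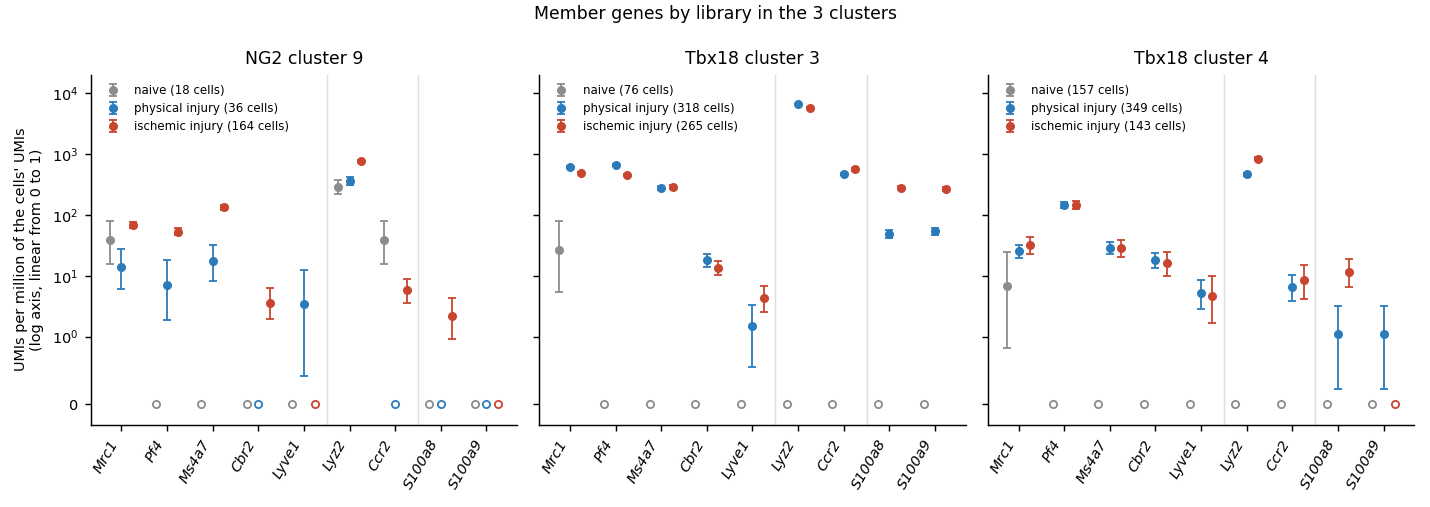
Level of each member (CPM with exact 95% Poisson intervals, log axis, open circles at 0) in NG2 cluster 9 and Tbx18 clusters 3 and 4, by library. In NG2 cluster 9 the ischemic injury points of Mrc1, Pf4, Ms4a7 and Lyz2 lie above those of physical injury, and in Tbx18 cluster 3 both injuries lie close together for these genes.

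The S100a8 and S100a9 transcripts could be traced to few cells. There were 13 cells with 10 or more UMIs of the pair: 4 in NG2 cluster 7, named radial glial precursors by the study, all of physical injury, 1 and 7 in Tbx18 cluster 3 in physical and ischemic injury, and 1 in Tbx18 cluster 4 in ischemic injury. The 4 NG2 cells had only 623 to 702 UMIs in all, of which the pair made up 5.14 to 21.9%, and each also held Camp and Ngp, genes of neutrophil granules made early in maturation, with 0 or 1 pan-myeloid gene. In NG2 the pair had 168 and 209 UMIs outside cluster 9. Of the 7 cells of ischemic injury in Tbx18 cluster 3, 6 held both Csf3r and Cxcr2, receptors of mature neutrophils, with 2579 to 5962 UMIs, and 5 of those held Retnlg. The other had 22734 UMIs, 10 of S100a8, 2 of S100a9, and 8 dendritic genes. All 13 cells had 0 to 12 Lyz2 UMIs, and border macrophage members were at 0 in all but 1 of them.

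**Figure D3:**
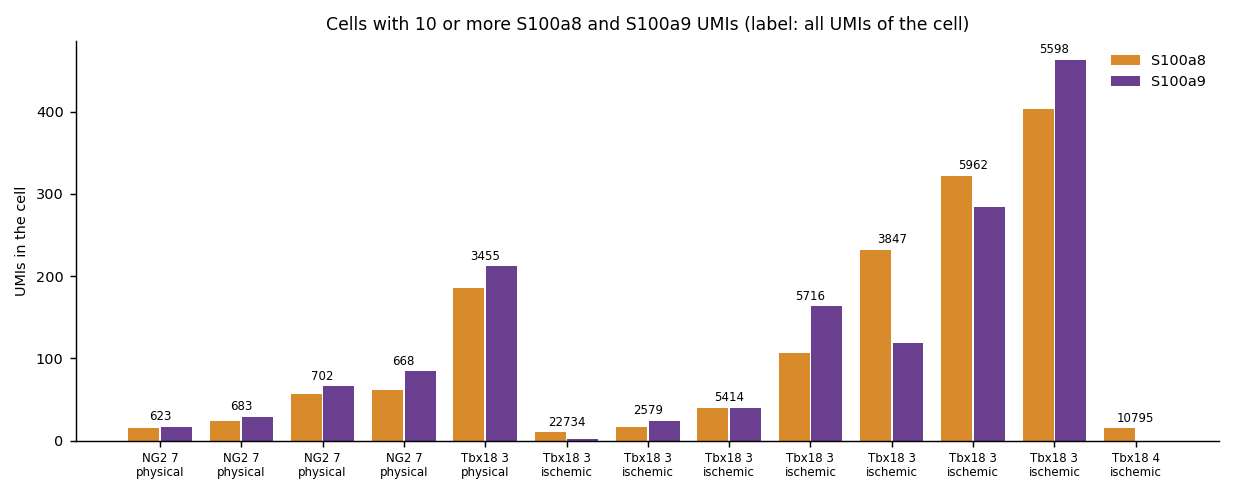
UMIs of S100a8 and S100a9 in each of the 13 cells with 10 or more UMIs of the pair, with all UMIs of the cell printed above the bars. The NG2 cells stand at 623 to 702 UMIs, while 1 Tbx18 cell of physical and 6 of ischemic injury hold up to 403 UMIs of S100a8 and 463 of S100a9 among 2579 to 5962 UMIs.

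Ischemic injury was next compared with physical injury within each cluster, a member being counted at 2-fold or more with 10 or more UMIs in the compared cells. All 6 members tested in NG2 cluster 9 were higher in ischemic injury, against 10.3% of all genes, and none was lower, against 5.87%. The ratio was 4.89 [2.45 to 11.5] for Mrc1, 7.63 [2.93 to 28.3] for Pf4, 7.58 [4.08 to 15.9] for Ms4a7 and 2.10 [1.82 to 2.43] for Lyz2. Cbr2 and Ccr2 stood against 0 UMIs in 36 cells. Set against the 3-UMI floor their ratios were at least 0.693 and at least 1.12. Their count past the fold thus depended on the 1 CPM added. Without the top ischemic injury cell of each gene, Cbr2 and Ccr2 had 7 UMIs each, too few to be tested. Lyz2 then stood at 673 CPM against 358 CPM in physical injury, inside 2-fold. Without the top cell of each library Lyz2 stood at 673 against 327 CPM, past 2-fold. Mrc1, Pf4 and Ms4a7 stayed past the fold without their top ischemic injury cell. The microglia and pan-myeloid lists each had 0 of 12 genes past the fold, while 5 of 9 other border macrophage genes and 2 of 5 other monocyte genes were higher. Among them Dab2, an endocytic adaptor, stood at 139 and 350 CPM in physical and ischemic injury, and F13a1, the coagulation factor XIII subunit of macrophages, at 0 and 10.6 CPM. Transcripts of other cell types moved with them: 6 of 6 pericyte, 3 of 3 smooth muscle and 3 of 4 oligodendrocyte genes were higher in ischemic injury, the pericyte list summing to 34.8 and 219 CPM and the oligodendrocyte list to 134 and 541 CPM, and median UMIs per cell were 16124.5 and 19742. Their part in the difference was not tested.

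The same comparison gave 3 of 9 members higher in ischemic injury, against 2.68% of genes, and none lower, against 2.41%, in Tbx18 cluster 3. S100a8 was 5.77 times [4.95 to 6.76] and S100a9 4.99 times [4.30 to 5.80] as high, both resting on the few cells described above. Lyve1 was 2.89 times [1.10 to 8.90] as high, with 7 of its 18 UMIs in 1 cell. Without the cells of 10 or more S100a8 and S100a9 UMIs, S100a8 stood at 1.51 and 3.19 CPM and S100a9 at 0 and 0.245 CPM in physical and ischemic injury. S100a9 then had under 10 UMIs, S100a8 lay inside 2-fold with the 1 CPM added, and the 1 member past the fold was Lyve1. Without its own top cell Lyve1 stood at 2.67 CPM in ischemic injury, against 1.51 CPM in all physical injury cells. With all cells, the other 4 border macrophage members lay inside 2-fold, with Mrc1 at a ratio of 0.788 [0.743 to 0.837], Pf4 at 0.695 [0.654 to 0.738], Cbr2 at 0.750 [0.519 to 1.08] and Ms4a7 at 1.04 [0.959 to 1.13]. The Pf4 ratio depended on single cells. Without the ischemic injury cell of 576 Pf4 UMIs, Pf4 stood at 312 CPM against 647 CPM in physical injury, past 2-fold lower. Without the top cell of each library it stood at 312 against 579 CPM, inside 2-fold. Lyz2 was at 0.875 [0.860 to 0.891] and Ccr2 at 1.19 [1.12 to 1.26], also inside 2-fold.

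Other genes of the marker lists were read in the same cells. Within Tbx18 cluster 3, 0 of 12 other border macrophage genes were past 2-fold, with Dab2 at 510 and 563 CPM and F13a1 at 297 and 281 CPM. Of the other monocyte genes 3 of 10 were higher in ischemic injury, among them Chil3, a chitinase-like protein of inflammatory monocytes, at 25.1 and 117 CPM, and Fn1, fibronectin, at 266 and 620 CPM. Of the other neutrophil genes 5 of 8 were higher, with Cxcr2 at 1.00 and 6.78 CPM and Retnlg at 0 and 23.5 CPM. In ischemic injury 27 of the 28 Cxcr2 UMIs and all 97 Retnlg UMIs lay in the cells of 10 or more S100a8 and S100a9 UMIs. Hdc, Lcn2 and Mmp9 also lay mostly in them, with 26 of 31, 22 of 26 and 21 of 35 UMIs. Il1r2 and Csf3r, with the most UMIs of the list, lay mostly outside them, with 41 of 878 and 79 of 214 UMIs inside. In physical injury Il1r2 had 369 UMIs and Csf3r 139. Smooth muscle transcripts moved the other way, at 285 CPM in physical and 5.81 CPM in ischemic injury.

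Within Tbx18 cluster 4, 1 of 8 members tested was higher in ischemic injury, against 2.21% of genes, and none was lower, against 12.6%. It was S100a8, at a ratio of 10.5 [2.97 to 56.5], from 1 cell. Lyz2 was 1.79 times [1.65 to 1.95] as high, and Mrc1, Pf4, Ms4a7, Cbr2, Lyve1 and Ccr2 lay at ratios of 0.899 to 1.28. The levels of the border macrophage genes in this cluster were thus within 2-fold of each other in the injured libraries.

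**Figure D4:**
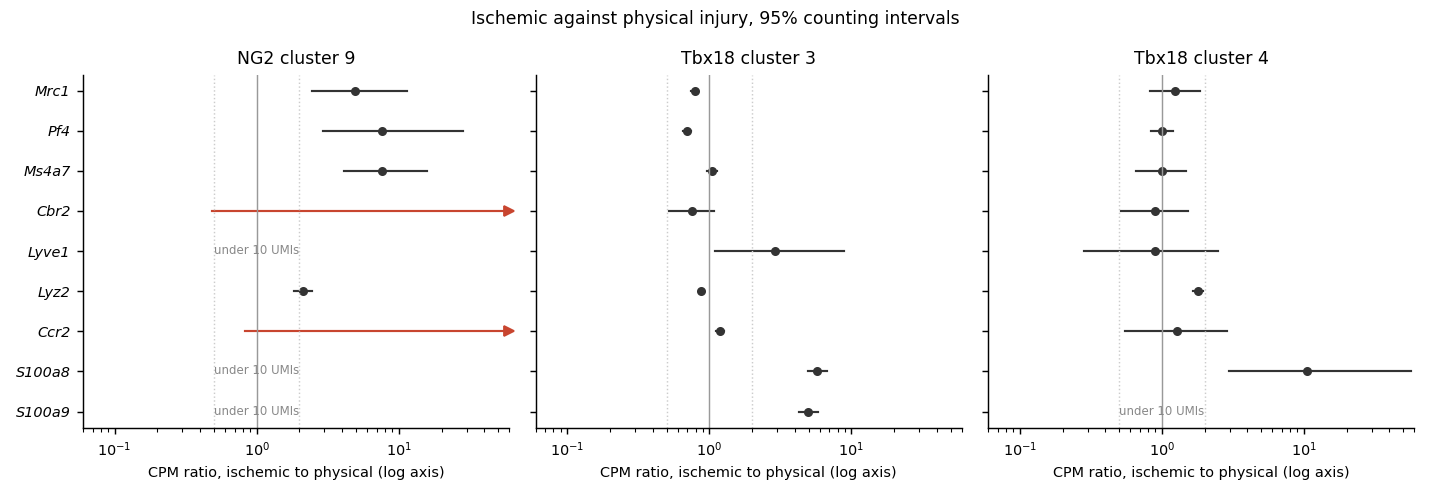
Ratio of ischemic to physical injury (CPM ratio, log axis) for each member in the 3 clusters, with exact 95% counting intervals, dotted lines at 2-fold and red arrows from the lower counting bound where physical injury had 0 UMIs. Mrc1, Pf4 and Ms4a7 lie right of 2-fold in NG2 cluster 9, at 4.89, 7.63 and 7.58, and within 2-fold in both Tbx18 clusters.

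Members in the naive libraries rested on few UMIs. Within NG2 cluster 9, all 7 Ccr2 UMIs and 6 of the 7 Mrc1 UMIs of naive mice lay in 1 cell of 16935 UMIs, which also held 606 UMIs of Cd74, 14 of Lyz2 and 0 of P2ry12, with 1 microglia gene detected. The other naive cell with Mrc1 had 12 microglia genes. In Tbx18, the 5 naive cells with an Mrc1 UMI in clusters 3 and 4 had 0 pan-myeloid genes, and 0 of 76 and 0 of 157 naive cells of these clusters were pan-myeloid, meaning that 3 or more of the 12 pan-myeloid genes had a UMI. Set against these naive cells, the members tested were all 2-fold or more higher: 8 of 8 after physical and 9 of 9 after ischemic injury in Tbx18 cluster 3, where 32.8% and 34% of all genes were higher and 31.5% and 29.6% lower, and 7 of 7 after each injury in Tbx18 cluster 4, where 20.8% and 18.1% of genes were higher and 22.7% and 32.3% lower. Apart from Mrc1, the members had 0 UMIs in these naive cells and met the minimum UMI count for testing through the injured cells alone. At the depth of the injured cells such a member was past 2-fold by construction, so these counts of members are no test. Different kinds of cells are also compared there. A change in which cells the cluster holds cannot be told apart from a change within cells. The 18 naive cells of NG2 cluster 9 are given as values only.

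To describe how the members were spread over cells, pan-myeloid cells were sorted by how many of the 5 border macrophage members (Mrc1, Pf4, Ms4a7, Cbr2, Lyve1) had a UMI. This is a range along a count, not a cell type. There were 17, 33 and 161 such cells in NG2 cluster 9 in the naive, physical injury and ischemic injury libraries, 304 and 247 in Tbx18 cluster 3 after physical and ischemic injury, and 44 and 19 in Tbx18 cluster 4. Of the NG2 cells, 0% in the naive, 3.03% in the physical injury and 10.6% in the ischemic injury library held 3 or more of the 5 genes, and 88.2%, 78.8% and 48.4% held none. Of the Tbx18 cluster 3 cells, 38.2% and 34.0% held 3 or more and 14.1% and 22.7% none, and in Tbx18 cluster 4, 40.9% and 68.4% held 3 or more. Thinned to 1000 UMIs, the shares with 3 or more were 0.649% in NG2 cluster 9 of ischemic injury, 6.88% and 3.98% in Tbx18 cluster 3, and 21.2% and 41.2% in Tbx18 cluster 4. Depth was not even across the range in NG2 cluster 9, where median UMIs were 11598 in cells with none of the 5 genes and 30526.5 in cells with 3 or more, but was in Tbx18 cluster 3, at 14797 and 13433.5.

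**Figure D5:**
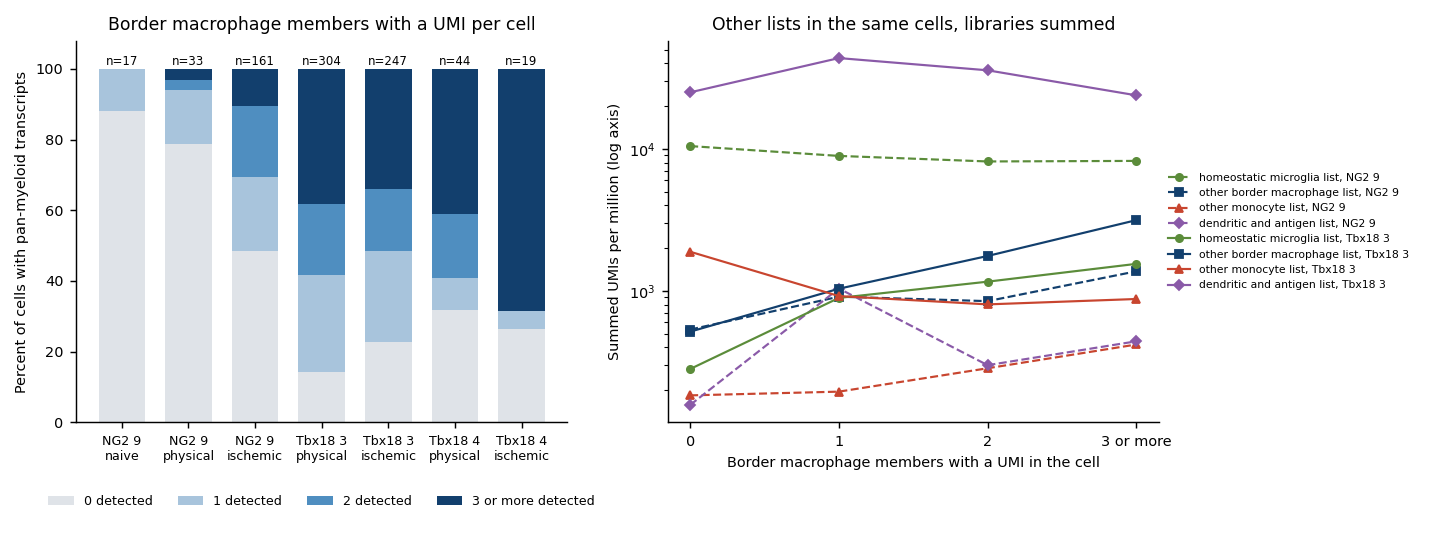
Left, percent of pan-myeloid cells by the number of border macrophage members with a UMI, per cluster and library; right, summed CPM (log axis) of marker lists over the same range, libraries summed, with NG2 cluster 9 dashed and Tbx18 cluster 3 solid. In NG2 the homeostatic microglia list stays between 8144 and 10451 CPM, and in Tbx18 cluster 3 the other border macrophage list goes from 515 to 3146 CPM.

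Cells of NG2 cluster 9 with border macrophage members also held microglia transcripts. The homeostatic microglia list summed to 10451, 8911, 8144 and 8218 CPM in cells with 0, 1, 2 and 3 or more members, P2ry12 stood at 786, 388, 260 and 241 CPM, and Siglech, a lectin of resting microglia, at 588, 296, 130 and 72.9 CPM. Fcrls, a microglia Fc receptor-like gene, went the other way, at 1351, 2027, 2317 and 2815 CPM. The libraries are mixed unevenly there, since 17 of the 18 cells with 3 or more members were of ischemic injury; within that library the list went from 10190 to 8092 CPM, P2ry12 from 707 to 242 CPM, Siglech from 531 to 67.9 CPM and Fcrls from 1471 to 2767 CPM between cells with none and with 3 or more. P2ry12 was found in 46 of the 47 cells with Pf4, 51 of the 55 with Mrc1 and 83.9% of all 211, but when cells were thinned to 1000 UMIs in 1 of 9 with Pf4, 1 of 8 with Mrc1 and 66 of all 201, so that the plain shares move with depth. Dab2 was at 111 CPM with none and 578 CPM with 3 or more members, F13a1 at 0.66 and 48.6 CPM, and Cd163, a haemoglobin scavenger receptor of border macrophages, was at 0 in the whole cluster. Within ischemic injury F13a1 had 26 UMIs in the 17 cells with 3 or more members. Maf, another gene of the border macrophage list, did not rise there. It stood at 205, 176, 143 and 192 CPM in cells with 0, 1, 2 and 3 or more members.

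Over Tbx18 cluster 3, with both injuries summed, the range ran between other genes. Lyz2 stood at 2255, 4213, 7010 and 9725 CPM in cells with 0, 1, 2 and 3 or more border macrophage members. F13a1 stood at 43.7, 98.6, 262 and 608 CPM, Maf, a transcription factor of tissue macrophages, at 38.7, 80.5, 246 and 568 CPM, and Folr2, a folate receptor of border macrophages, at 0.72, 0, 3.47 and 77.8 CPM. Ccr7, a receptor of migrating dendritic cells, went from 643 CPM in cells with none to 0.36 CPM in cells with 3 or more, Plac8, a monocyte gene, from 693 to 40.1 CPM, and S100a8 from 936 to 1.45 CPM. The S100a8 values rest on few cells: 1 cell held 185 of the cluster's 191 UMIs of physical injury, and 7 cells held 1130 of its 1143 of ischemic injury. Cd209a, a lectin of monocyte-derived dendritic cells, was highest in cells with 1 member, at 555 CPM. Ccr2 was present throughout, at 323, 608, 536 and 541 CPM. The homeostatic microglia list went from 281 to 1548 CPM, below the lowest value of NG2 cluster 9, with Tmem119, another microglia gene, at 16.3 CPM in cells with 3 or more members against 198 CPM in such NG2 cells.

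Pairs of members shared cells unevenly. Among 551 pan-myeloid cells of Tbx18 cluster 3, 403 held Mrc1, 278 Ms4a7, 257 Pf4, 458 Ccr2 and 492 Lyz2. Ms4a7 was found in 79.8% of the cells with Pf4 and in 50.5% of all, and Ccr2 in 90.3% of the cells with Mrc1 and in 83.1% of all. Cd209a was found in 7.00% of the cells with Pf4 and 5.40% of those with Ms4a7, but in 22.8% of those with Mrc1 and 20.5% of all. Ms4a7 in NG2 cluster 9 was found in 63.8% of the cells with Pf4 and in 25.1% of all 211. Deep cells hold more genes of any kind, and the part of depth in these shares was not tested.

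Tbx18 cluster 4 held its members in a minority of cells. Pan-myeloid cells made up 44 of 349 cells (12.6%) in physical and 19 of 143 (13.3%) in ischemic injury, and these 63 cells held 95.5% of the cluster's Mrc1, 99.5% of its Pf4, 95.7% of its Ms4a7, 98.4% of its Lyz2 and 93.1% of its Ccr2 UMIs. Cbr2, at 80.0%, Lyve1, at 45.0%, and S100a8, at 11.1% of 18 UMIs, were less confined to them. The other 586 cells, 157 of them naive, had Lyz2 at 9.32 CPM, in 5.80% of cells. Of the 63 cells, the 31 with 3 or more border macrophage members had Lyz2 at 12144 CPM, Ccl8, a monocyte-attracting chemokine of border macrophages, at 700 CPM, F13a1 at 572 CPM and Folr2 at 211 CPM, and the 19 with none had 3510, 0, 17.2 and 0 CPM. In the 19 cells with none Chil3 stood at 1239 CPM and Plac8 at 568 CPM, compared with 22.6 and 0 CPM in the 31. Those UMIs of the 19 cells came from ischemic injury alone. The other monocyte list, which holds both genes, stood at 0 CPM in the 14 cells of physical injury and 4900 CPM in the 5 of ischemic injury. The whole cluster's smooth muscle list summed to 4371 and 5452 CPM and its fibroblast list to 856 and 2018 CPM in physical and ischemic injury.

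Outside the clusters described, the members differed from one another. Mrc1 had 370 UMIs in 310 of the other 10237 NG2 cells (3.03%), none of them in a pan-myeloid cell, and 199 of the UMIs were of naive mice. It stood at 16.9, 22.6 and 12.3 CPM in NG2 cluster 0, named activated pericytes by the study, in naive, physical and ischemic injury, at 15.2 CPM in cluster 2 and 9.66 CPM in cluster 1, both canonical pericytes, and at 0.58 CPM in cluster 3, smooth muscle cells. In Tbx18, canonical pericytes (cluster 2) had Mrc1 in 22 of 226 naive cells, at 24.2 CPM. Mrc1 thus stood higher in the NG2 pericyte clusters 0, 1 and 2 than in smooth muscle cluster 3, in each of the 3 libraries.

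Cbr2 and Lyve1 were seen in smooth muscle clusters. Cbr2 stood at 5.91, 6.59 and 5.19 CPM in NG2 cluster 3 in the 3 libraries, in 36 of 1022 cells, and at 8.46 CPM in Tbx18 cluster 1, in 67 of 937 cells. Lyve1 stood at 4.29 and 3.32 CPM in the same clusters. In NG2 cluster 4, named mature oligodendrocytes, 34 Lyve1 UMIs lay in 6 of 592 ischemic injury cells.

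As a background level, Lyz2 and Ccr2 were read in the other clusters, whose mural, endothelial and glial cells should lack them; free RNA and doublets were not estimated apart. Lyz2 was at 0 in the other 4288 naive NG2 and the other 453 naive Tbx18 cells, and was found in 1.08% of the other ischemic injury cells of NG2. In Tbx18 it was found in 6.51% and 6.77% of the other cells after physical and ischemic injury, at 9.45 and 9.35 CPM and median depths of 7120 and 8664 UMIs, and in 1.02% and 0.559% when thinned to 1000 UMIs. Of the 361 Lyz2 UMIs outside Tbx18 clusters 3 and 4, 39 lay in 6 pan-myeloid cells. The other cells of Tbx18 cluster 4, at 10.9 and 8.23 CPM after physical and ischemic injury, were near that level, while the pan-myeloid cells of clusters 3 and 4 were far above it. Ccr2 was found in 19 of the other 5270 Tbx18 cells (0.361%). Pf4 stood at 3.42 CPM in NG2 cluster 5 and 3.06 CPM in Tbx18 cluster 0, both named endothelial cells, and 26 Pf4 UMIs of Tbx18 cluster 5, fibroblasts, lay in 1 cell.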

How the data were processed

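Single-cell RNA-seq was done on 6 libraries of tdT+/DAPI- cortical cells, 1 per group. The deposited values are UMI counts, not normalized; the authors aligned and counted reads on mm10 (GRCm38) with Cell Ranger (7.0.0 in the submitters' processing notes) and joined the libraries of a line in Seurat, and the clusters and the library of each cell are those the authors deposited. The deposited percent values are mitochondrial percentages per cell. The authors kept cells with at least 200 genes, at most 12% mitochondrial UMIs and values within 2 SD; reapplied to the deposited cells, these limits passed 15722 of 17033. Intronic reads and strand settings are not given in the sources used here.

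Raw counts were summed per cluster and library and scaled to 1000000 UMIs. Intervals are exact Poisson, Clopper-Pearson for shares, and exact conditional for ratios. Folds across all genes with 10 or more counts used CPM plus 1. Cells were also thinned to 1000 UMIs. Scrublet (in Scanpy 1.11.5) called 67 of 17033 cells (0.393%), too few to be read as working, so doublets were kept and the removal of the highest scores was an alternative. SciPy 1.17.1 gave the intervals, with pandas 2.3.3, NumPy 2.4.6 and matplotlib 3.10.9 on Python 3.11.15, and edgeR 4.0.16 in R 4.3.3 was used for TMM factors only. The sums and ratios were tested on simulated data. The text names the 9 members, genes of fixed marker lists, for each member the 5 genes of highest correlation, and the 5 genes with the largest ratios each way among those at 50 CPM or more in the higher library. The members and lists were chosen with earlier results of these data known. Some listed genes, among them Cd209a, Ccr7 and Retnlg, were not among the NG2 genes, and 1 listed gene is not reported here.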

Additional observations from a re-analysis of the deposited data

Results flagged for a closer look

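Of the comparisons between ischemic and physical injury, 3 members moved in opposite directions in NG2 cluster 9 and Tbx18 cluster 3, each library being 1 pooled sample, and the difference between the lines was not tested. The ratio of Mrc1 was 4.89 in NG2 cluster 9 and 0.788 in Tbx18 cluster 3. The ratio of Pf4 was 7.63 and 0.695, the latter with 31.0% of the ischemic injury UMIs in 1 cell. Without that cell Pf4 was lower still in ischemic injury, at 312 CPM against 647 CPM in physical injury. The ratio of Lyz2 was 2.10 and 0.875. Without the top ischemic injury cell, Lyz2 in NG2 cluster 9 stood at 673 CPM against 358 CPM in physical injury, inside 2-fold. Without the top cell of each library it stood at 673 against 327 CPM, past 2-fold. With all cells, the Tbx18 cluster 3 ratios of these 3 members lay inside 2-fold.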

How the results depend on the processing

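No paired analysis was possible because each group is 1 library and the labels give no replicate numbers, and for the same reason no library could be left out. Of 867 values under alternatives, 2 that were past the fold changed sign, both for S100a8 in Tbx18 cluster 4, where the log2 ratio of ischemic to physical injury was -3.75 with pan-myeloid cells alone and -1.07 without the cells of 10 or more S100a8 and S100a9 UMIs, compared with 2.58; it rests on 1 cell. That alternative, the removal of the top cell and the values within each injury library were chosen after seeing the data. Cbr2, Lyve1 and, in NG2, Ccr2 rested on few UMIs, and the part of depth in this was not tested.

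With TMM factors the 9 members summed to 1325 CPM in NG2 cluster 9 of ischemic injury (1017 before) and to 11882 and 10588 CPM in Tbx18 cluster 3 of physical and ischemic injury (8663 and 8056 before). With the mean of each cell's CPM these were 1103, 8767 and 8823 CPM, and with the study's filters applied again 1147, 8831 and 8463 CPM. TMM moved the log2 ratio of Mrc1 in NG2 cluster 9 from 2.21 to 2.42 and that of Ms4a7 in Tbx18 cluster 3 from 0.06, inside the fold, to just below 0. The share of member UMIs inside the clusters was 77.6% (NG2) and 98.4% (Tbx18) with the filters, 99.0% (Tbx18) without the highest Scrublet scores, and 60.5% and 98.4% with thinned cells.

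With 5 CPM added, genes past the fold numbered 680 higher and 1604 lower in NG2 cluster 9 against other clusters (1038 and 2890 before), 699 and 1152 in Tbx18 cluster 3 (1163 and 2116 before), and 364 and 642 in Tbx18 cluster 4 (651 and 1200 before). With 2-fold in place of 4-fold they numbered 2196 and 5677, with 1 member lower, 2285 and 4804, and 1813 and 4007, with 2 members higher. Between injuries, 5 CPM gave 484 and 320 genes in NG2 cluster 9 (1182 and 674 before), 77 and 70 in Tbx18 cluster 3 (340 and 306 before), and 87 and 632 in Tbx18 cluster 4 (264 and 1507 before). With no minimum count these were 2122 and 1615, with 1 member lower, in NG2 cluster 9, 528 lower in Tbx18 cluster 3, and 539 and 2325, with 1 member lower, in Tbx18 cluster 4. TMM gave 435 lower genes in NG2 cluster 9, and pan-myeloid cells alone gave 533 lower genes and 0 members higher in Tbx18 cluster 4. Without the S100 cells 1 member, Lyve1, was higher in Tbx18 cluster 3 and 0 in Tbx18 cluster 4.

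The share of pan-myeloid cells with 3 or more border macrophage genes was also taken at 2 UMIs for detection. It was 0% and 4.35% in NG2 cluster 9 in physical and ischemic injury, and 25.0% and 25.1% in Tbx18 cluster 3. In Tbx18 cluster 4 it was 42.1% of the pan-myeloid cells in ischemic injury. With thinned cells the shares of pan-myeloid cells were 0% and 0.649%, 6.88% and 3.98%, and 21.2% and 41.2% in the same clusters. The other alternatives changed none of these counts by over 1.5 times, and 222 values of single genes moved beyond counting error.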

Other observations

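Over 47 cluster and library units of both lines with 20 or more cells, which share cluster composition and depth, the genes whose log2 levels most resembled a member's were led by S100a9 for S100a8 (r = 0.93), Clec4a2 for Ms4a7 (0.98), Wfdc17 for Lyz2 (0.96) and for Pf4 (0.94), Sirpb1c for Ccr2 (0.98), Tgfbi for Mrc1 (0.85), Adam33 for Cbr2 (0.80) and Gm12840 for Lyve1 (0.60). These are descriptions of levels across clusters and libraries.

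Among genes at 50 CPM or more in the higher library, the largest log2 ratios of ischemic to physical injury in NG2 cluster 9 were those of Saa3, an acute phase protein, at 5.94, Gpnmb at 4.26, Rgs5, a pericyte gene, at 3.68, Spp1, osteopontin, at 3.30, and Vim, vimentin, at 3.12. The lowest log2 ratio among these genes was that of Ccl5, at -3.64, with 86 UMIs in 1 physical injury cell, and Edn1, which encodes endothelin 1, stood at -2.46. In Tbx18 cluster 3, Xcl1 stood at 2.38, Chil3 at 2.18 and Ifitm1 at 2.16, beside S100a8 at 2.50 and S100a9 at 2.30. The smooth muscle genes Myl9, Acta2 and Tagln stood at -5.62, -5.25 and -4.85 there. Their part in the members' levels was not tested.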
